A study of Homo sapiens with 6 samples.

Results

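The 10 genes described here are the human circadian clock genes PER1, PER2, PER3, CRY1, CRY2, NR1D1, NR1D2, DBP, TEF and BHLHE40. They were chosen by symbol, as clock repressors, clock nuclear receptors and output factors, with earlier results of these data known. All 10 were found among the 13008 genes of the authors' deposited comparison table and the 13161 genes of the normalised count table. All 10 passed the filter on low counts, each in all 6 libraries.

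The molecular clock of mammalian cells is a feedback loop of transcription that takes about a day to complete. The activators CLOCK and BMAL1 (gene symbol ARNTL) bind E-box sequences and switch on the PER and CRY genes, whose proteins enter the nucleus and repress the activators. In a linked loop, the nuclear receptors REV-ERB alpha and beta (NR1D1 and NR1D2) repress ARNTL through elements that ROR receptors also bind. DBP and TEF are PAR bZIP activators that bind D-box sequences and carry the rhythm to output genes, and BHLHE40 (DEC1) is a repressor that competes at E-boxes. Cells in culture, retinal pigment epithelial lines included, keep such clocks. Serum, medium change, glucocorticoids and cyclic AMP are known to reset them, so the phase at harvest can affect the level of such genes. Phase was not measured here.

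The study sequenced polyadenylated RNA from a stable hTERT-RPE1 line that carries an inducible FLAG-FOXM1c transgene. hTERT-RPE1 is a telomerase-immortalised line derived from retinal pigment epithelium, FOXM1 is a forkhead transcription factor of the G2 and M phases of the cell cycle, and the series compared cells with and without doxycycline, the inducer. The 3 dox libraries have the genotype label FOXM1 overexpression and came from cells given 1 µg/mL doxycycline at intervals of 24 h over 48 h. The 3 no dox libraries come from the same named line, with the genotype label WT and the treatment label none, although the protocol text on their records also describes doxycycline. Both groups thus carry the transgene construct, and a line without it was not analysed here, so doxycycline itself and FOXM1 cannot be told apart. The sources used here do not give whether the line is 1 clone, or the clock time and time since medium change at harvest.

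Read totals were between 15094498 and 49882123 per library. Replicate 3 was the shallowest of each group, at 25148936 reads in dox and 15094498 in no dox. FOXM1 was at 4292 to 5009 normalised counts in no dox and 65289 to 74976 in dox, a log2 change of 3.92, and the count does not separate the transgene from the endogenous gene. Of 10 retinal pigment epithelium markers only MITF and OTX2 reached an FPKM of 1 in every library, and the other 8, RPE65, BEST1 and TYR among them, were under 0.3. Of 6 epithelial markers KRT8, KRT18 and CLDN1 reached an FPKM of 1 and EPCAM was listed at 0, 6 of 8 mesenchymal markers reached it, and none of 5 blood markers did. All 3 measured epithelial markers were higher in dox with the replicate number as a block, by 0.29 (KRT8), 0.32 (KRT18) and 0.82 (CLDN1), and CLDN1 also without it (limma adjusted p = 0.0447), while 1 of 6 mesenchymal markers, THY1, was lower, at -0.27. Their part in the changes of the clock genes with dox was not tested. In bulk libraries such as these, fewer cells of a type and less RNA per cell cannot be told apart.

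Upstream sequence was read for all 10 genes from RefSeq (GRCh38.p14), as the 250 bases before each annotated start, which gave 14 windows because CRY2, NR1D2, PER3 and TEF have a pair each. The canonical E-box CACGTG, the site of CLOCK and BMAL1, was in 5 of the 14 windows, those of PER1, NR1D2, BHLHE40 and both of TEF, and in 6.34% of the 35116 windows of all genes. The related E-prime box CACGTT was in 4 windows, of PER2, CRY1, CRY2 and NR1D1, against 4.55% of all windows. A D-box, TTATGTAA or TTACGTAA, was in 2 windows, of PER3 and NR1D2, against 0.94%. The core AGGTCA of the element bound by ROR and REV-ERB was in 3 windows, of PER1 and both of CRY2, against 12.1%. No member window held the cyclic AMP response element TGACGTCA (1.65% of all windows) or the cell cycle CHR motif TTTGAA (13.3%), and 1 window, of CRY1, held the forkhead core TAAACA (11% of all windows). Each motif was searched on both strands, the 2 TEF windows do not overlap and the 2 PER3 windows do. A match describes the letters only and is no evidence of binding.

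The windows below are shown 5′ to 3′ on the gene's strand, ending at the base before the start. They show windows with an E-box or D-box from genes that differed by replicate number. DBP is shown too, as it differed most by replicate number and had the largest mean change with dox. The other TEF window, with an E-box 195 bases before the start, is not shown. The window of NR1D1 and the other windows of NR1D2 and PER3 held no E-box or D-box and are not shown either. Capitals mark the E-box, D-box or AGGTCA core.
PER1, chr17:8152405-8152654, minus strand: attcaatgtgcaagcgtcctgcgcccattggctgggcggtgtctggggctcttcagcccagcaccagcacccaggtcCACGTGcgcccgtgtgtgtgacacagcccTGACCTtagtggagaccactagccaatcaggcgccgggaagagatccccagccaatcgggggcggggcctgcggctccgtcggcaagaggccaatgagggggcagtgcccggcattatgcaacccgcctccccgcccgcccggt
PER3, chr1:7784041-7784290, plus strand: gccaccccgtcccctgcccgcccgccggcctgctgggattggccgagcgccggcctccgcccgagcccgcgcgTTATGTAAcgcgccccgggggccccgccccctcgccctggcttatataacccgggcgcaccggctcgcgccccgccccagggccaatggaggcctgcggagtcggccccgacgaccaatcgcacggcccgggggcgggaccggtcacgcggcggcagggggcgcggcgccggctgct
NR1D2, chr3:23945871-23946120, plus strand: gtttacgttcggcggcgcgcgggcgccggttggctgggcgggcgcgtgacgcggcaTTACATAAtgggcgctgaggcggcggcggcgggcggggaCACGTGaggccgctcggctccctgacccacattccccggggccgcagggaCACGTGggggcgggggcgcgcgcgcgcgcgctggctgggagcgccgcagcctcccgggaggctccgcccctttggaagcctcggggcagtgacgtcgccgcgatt
BHLHE40, chr3:4979187-4979436, plus strand: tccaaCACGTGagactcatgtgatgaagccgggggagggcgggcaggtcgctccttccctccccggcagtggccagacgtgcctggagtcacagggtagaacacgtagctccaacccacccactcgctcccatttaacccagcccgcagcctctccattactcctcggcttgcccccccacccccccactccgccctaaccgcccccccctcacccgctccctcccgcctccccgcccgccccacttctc
TEF, chr22:41381692-41381941, plus strand: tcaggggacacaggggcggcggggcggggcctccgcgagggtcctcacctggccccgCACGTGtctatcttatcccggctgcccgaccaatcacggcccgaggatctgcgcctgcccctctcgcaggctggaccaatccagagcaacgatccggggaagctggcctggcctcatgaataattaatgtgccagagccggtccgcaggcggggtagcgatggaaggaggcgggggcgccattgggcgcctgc
DBP, chr19:48637380-48637629, minus strand: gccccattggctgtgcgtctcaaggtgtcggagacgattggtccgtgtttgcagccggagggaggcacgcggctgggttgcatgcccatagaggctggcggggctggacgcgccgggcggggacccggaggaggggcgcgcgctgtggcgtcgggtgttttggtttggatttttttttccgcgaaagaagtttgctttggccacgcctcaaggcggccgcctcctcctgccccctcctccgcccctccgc
The E-box of PER1 begins 173 bases before the start and its AGGTCA core, on the other strand, 144 before. NR1D2 has E-boxes at 155 and 105 bases before the start and a D-box at 194. The BHLHE40 E-box is at the far end of the window, 245 bases before the start, that of this TEF window is at 193, and the D-box of PER3 is at 177. The DBP window held none of the motifs searched.

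The steady level of the 10 genes was compared per length, as CPM per kilobase of merged exons of protein-coding transcripts (CPM is the read count scaled to the library's total), in the no dox libraries. NR1D2 had the highest level, 17.8 ± 1.5 (SD, n = 3), followed by BHLHE40 at 12.8 ± 2.42, CRY1 at 8.04 ± 0.407 and NR1D1 at 5.82 ± 0.93. DBP at 3.95 ± 1.16, PER3 at 3.94 ± 0.557 and TEF at 3.92 ± 0.58 had overlapping ranges and cannot be ordered. PER1 at 2.09 ± 0.451 overlapped CRY2 at 1.86 ± 0.215, and PER2 was lowest at 0.945 ± 0.0692, apart from all others. The median of 11641 protein-coding genes was 7.98 on the same scale, so NR1D2 and BHLHE40 lay above it in every library, CRY1 was level with it, and the other 7 lay below. The REV-ERB and PER paralogues were thus at unlike levels within each family. With the exons of all transcripts as the length, CRY1 and NR1D1 overlapped and DBP came after PER3, at 1.74. With the authors' FPKM, BHLHE40 came first and overlapped NR1D2 (7.88). PER2 had the lowest mean on all 3 scales. With the authors' FPKM its range (0.329 to 0.375) overlapped that of PER1 (0.307 to 0.47), so these cannot be ordered there.

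**Figure D1:**
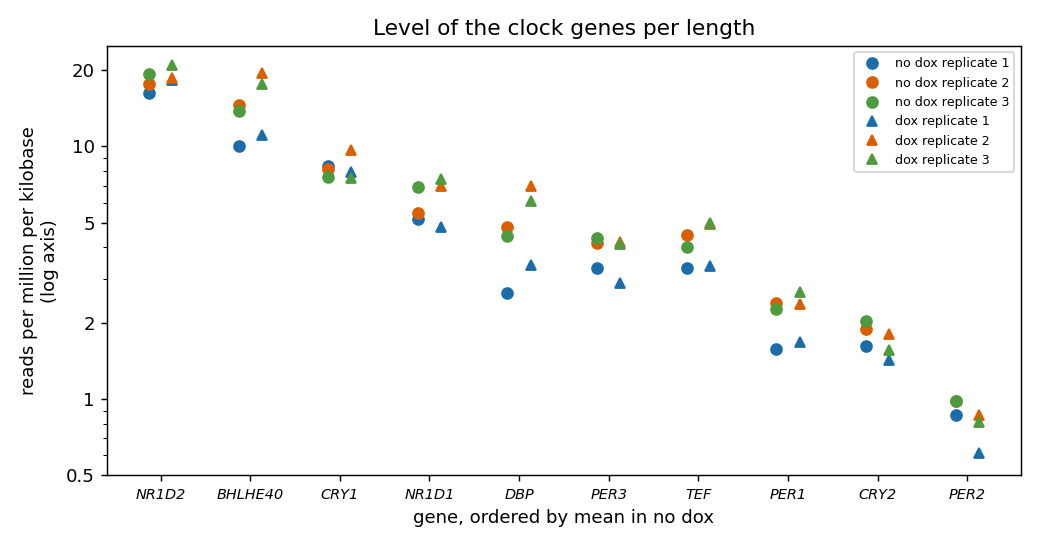
Level of each clock gene per length (CPM per kilobase of protein-coding exons, log axis), 1 point per library, with genes ordered by their mean in no dox and circles for no dox, triangles for dox. NR1D2 and BHLHE40 are at the top and PER2 at the bottom in both groups, and the replicate 1 points (blue) are the lowest of their group for most genes.

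The values that follow are the authors' normalised counts, which are equalised for depth between libraries but not for gene length, in the order replicate 1, 2 and 3. Changes are dox minus no dox on the scale log2(normalised count + 1), which understates the change of low genes, and adjusted p-values are from limma with Benjamini-Hochberg adjustment over 13153 genes. The test was run without and with the replicate number as a block, because same-numbered dox and no dox libraries deviated together. Nothing in the labels says that replicates were separate cultures, so p-values measure the spread between these libraries, which may be technical.

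Among the PER repressors, PER2 (ENSG00000132326, chr2:239152679-239198743 in hg19) was the one member whose groups did not overlap. It had 113, 153 and 153 normalised counts in dox and 164, 179 and 186 in no dox. Every dox library was below every no dox library, and groups were apart in this or the other direction in 19.1% of all genes. The means were 139.6 ± 23.3 and 176 ± 11.3 (SD, n = 3), a log2 change of -0.34 (SE 0.16), which missed the threshold when unblocked (limma adjusted p = 0.428) and was just under it when blocked (adjusted p = 0.0493). The blocked call was lost with FPKM values (adjusted p = 0.0974), with TMM scaling (0.0528) and without any 1 of the 6 libraries (0.0992 to 0.17). PER2 is a core repressor of the loop, and it had the fewest reads here, 95 to 275 per library.

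PER1 (chr17:8043790-8059824, hg19), a PER paralogue that is an early target of cyclic AMP and glucocorticoid signals, had 268, 361 and 424 normalised counts in dox and 254, 374 and 372 in no dox. The groups overlapped almost fully, while both replicate 1 libraries were below the other 4. PER3 (chr1:7844380-7905237, hg19), the paralogue that the loop does not require, had 548, 752 and 782 in dox and 635, 765 and 843 in no dox. PER3 was lower in dox in all 3 pairs, with log2 differences of -0.21, -0.02 and -0.11, and again both replicate 1 libraries were lowest. Neither passed with dox: PER1 changed by 0.07 (limma adjusted p = 0.934, with the block 0.573) and PER3 by -0.11 (adjusted p = 0.853, with the block 0.217).

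CRY1 and CRY2 encode the cryptochromes, the partners of PER and the stronger repressors of CLOCK and BMAL1. CRY1 (chr12:107385142-107487607, hg19) had 755, 875 and 722 normalised counts in dox and 810, 757 and 745 in no dox, with overlapping groups. It had the smallest change with dox of the 10 genes, at 0.02 on the log2 scale (SE 0.10, adjusted p = 0.961). CRY2 (chr11:45868669-45904798, hg19) had 181, 220 and 202 in dox and 210, 235 and 264 in no dox. CRY2 was lower in dox in all 3 pairs and its groups overlapped, at a log2 change of -0.23 (limma adjusted p = 0.557, with the block 0.118). The 2 cryptochromes were thus unlike in their mean change, and the difference between them was not tested.

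The nuclear receptors showed small changes. NR1D1 (chr17:38249040-38256978, hg19) had 387, 540 and 607 normalised counts in dox and 423, 427 and 568 in no dox. NR1D2 (chr3:23986751-24022109, hg19) had 2815, 2711 and 3241 in dox and 2537, 2637 and 3043 in no dox. In both genes replicate 3 was highest in each group and the groups overlapped. NR1D2 was higher in dox in all 3 pairs, by 0.15, 0.04 and 0.09, and did not pass (limma adjusted p = 0.797, with the block 0.159). NR1D1 changed by 0.10 (adjusted p = 0.897, with the block 0.454) and was higher in 2 of 3 pairs, and among the blocked settings it passed without dox replicate 1 (adjusted p = 0.0431) or no dox replicate 1 (0.0450) only. The gene span of NR1D1 overlaps that of THRA over 1081 bases on the other strand, and THRA was the more abundant at 58.0 against 17.0 CPM. Overlap of exons was not measured. NR1D2 overlaps NKIRAS1 over 1332 bases (18.9 against 97.4 CPM for NR1D2). No source used here gives whether counting used strand, so part of these counts may belong to the partner gene.

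DBP had the largest mean change with dox among the 10 genes with all 6 libraries. It is the best known PAR bZIP output factor and one of the most strongly cycling transcripts of the clock. DBP (ENSG00000105516, chr19:49133287-49140695, hg19) had 285, 560 and 512 normalised counts in dox and 224, 393 and 380 in no dox. Each dox library was above its same-numbered partner, yet dox replicate 1 was below no dox replicates 2 and 3, so the groups overlapped. The means were 453 ± 147 and 332 ± 94.0 (SD, n = 3), a 1.35-fold ratio, and the pairs differed by 0.35, 0.51 and 0.43 on the log2 scale. Without the block the change of 0.43 had an SE of 0.30 and did not pass (limma adjusted p = 0.636). Unblocked, leaving out 1 library moved it between 0.17 (no dox replicate 1) and 0.73 (dox replicate 1), and without no dox replicate 1, dox replicate 2 (0.25) or dox replicate 3 (0.31) the PER2 change was larger in size (-0.40, -0.42 and -0.42). With the block the SE was 0.07 and DBP was called higher (adjusted p = 0.00336), and it was so in all 10 blocked settings (7.25e-05 to 0.0449). Among those settings, leaving out either library of a pair gives the same estimate, so they are not all separate checks. DBP overlaps SPHK2 on the other strand over 688 bases, with SPHK2 at 24.7 and DBP at 13.6 CPM.

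TEF (chr22:41763337-41795330, hg19), the other PAR bZIP factor, had 457, 642 and 683 normalised counts in dox and 455, 588 and 561 in no dox. The replicate 1 libraries were almost equal and lowest, and the other 2 pairs were higher in dox by 0.13 and 0.28. Its log2 change of 0.14 did not pass (limma adjusted p = 0.828, with the block 0.198), and it passed with the block only without dox or no dox replicate 1 (adjusted p = 0.0373 and 0.0375). BHLHE40 (ENSG00000134107, chr3:5020801-5027008, hg19) had 1130, 1879 and 1801 in dox and 1033, 1436 and 1441 in no dox. As for DBP, each dox library was above its partner and dox replicate 1 was below no dox replicates 2 and 3. The means were 1603 ± 412 and 1303 ± 234 (SD, n = 3), a log2 change of 0.28 with an SE of 0.21 that did not pass (limma adjusted p = 0.674) and that moved between 0.12 (without no dox replicate 1) and 0.51 (without dox replicate 1). With the block the SE was 0.06 and BHLHE40 was called higher (adjusted p = 0.00856). That call failed when dox replicate 2 (adjusted p = 0.101), no dox replicate 2 (0.0963) or dox replicate 3 (0.0520) was left out.

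**Figure D2:**
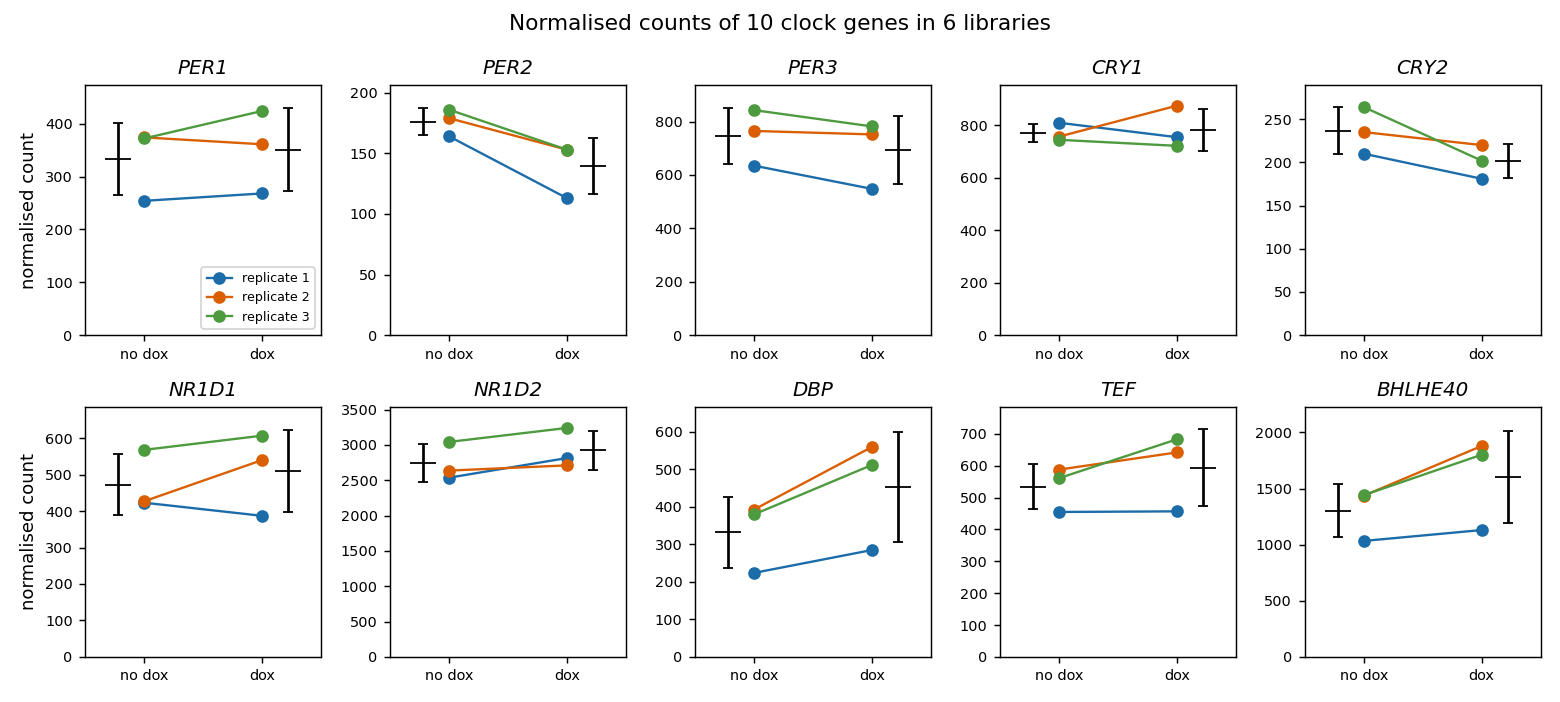
Normalised counts of the 10 clock genes in no dox and dox (y axis from 0), 1 point per library, with lines joining libraries of equal replicate number and black marks for the group mean ± SD (n = 3). Replicate 1 (blue) is the lowest within each group in PER1, PER2, PER3, CRY2, NR1D1, DBP, TEF and BHLHE40. The lines of DBP and BHLHE40 all slope up while those of PER2 all slope down.

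Counted over the 10 genes, the limma dox test without a block called none, beside 71 calls among all genes (0.54%). None of the 10 had an unadjusted p under 0.05 in that test, beside 1710 of all 13153 genes. edgeR's quasi-likelihood test and DESeq2 on the recovered reads also called none of the 10, beside 67 and 522 calls among all genes. The authors' deposited table lists adjusted p-values of 0.636 for DBP, 0.666 for BHLHE40 and 0.759 for PER2, the 3 smallest of the 10, and it calls none of the 10, beside 361 of its 13008 genes. With the block, 2 of 10 were higher (DBP and BHLHE40) beside 10.2% of all genes, and 1 was lower (PER2) beside 12.4%. A total of 3 of 10 is near the 22.5% of all genes called in that fit. The median log2 change of the 10 was 0.08 beside 0.00 for all genes. Every pair was higher in dox for 4 members (26.5% of all genes) and lower for 3 (28.5%), again near the background.

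**Figure D3:**
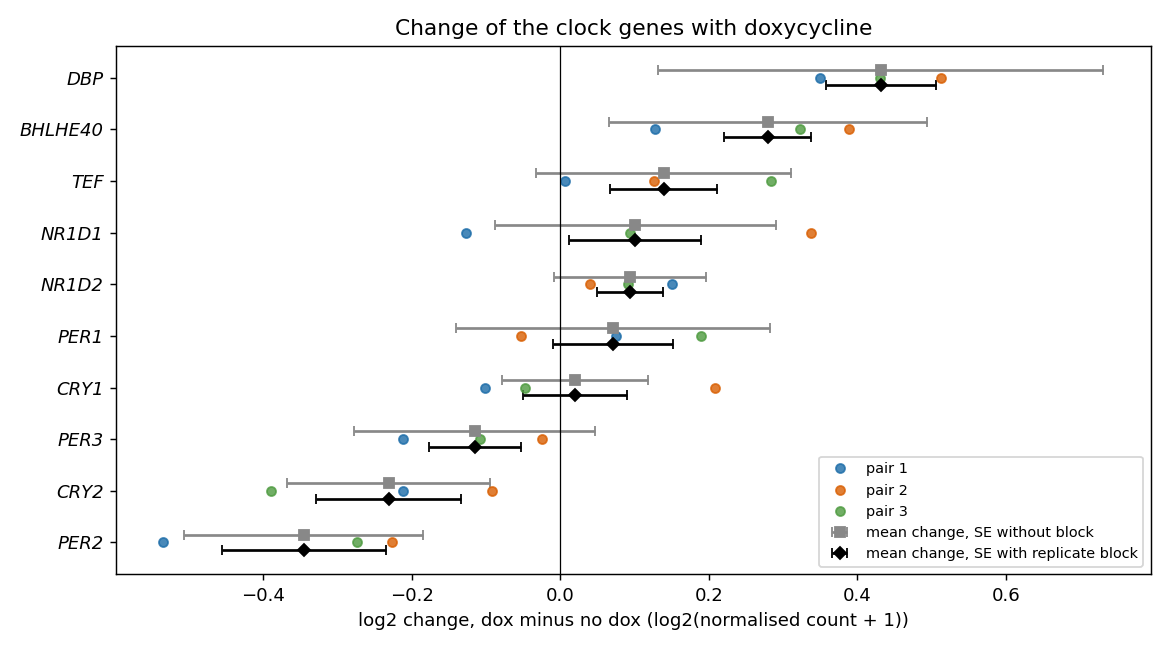
Log2 change of each clock gene, dox minus no dox, with 1 point per same-numbered pair and the mean with its SE from the fits without (grey) and with (black) the replicate block. The black bars of DBP and BHLHE40 are much shorter than the grey ones and lie to the right of 0, and PER2 lies to the left.

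The replicate number was the larger source of variation in most of these genes. Within each gene it held a median of 79.1% of the sum of squares of the log2 values over the 6 libraries, beside 12.3% for dox, whereas over all genes the medians were 61.5% and 17.5%. Replicate number takes more degrees of freedom than dox, so its share tends to be the larger even with no effect. The share was 94.9% in PER1, 89.2% in PER3, 84.0% in TEF, 81.6% in NR1D2, 80.7% in NR1D1, 77.4% in BHLHE40 and 77.1% in DBP. These 7 genes also passed the limma F-test of replicate number, 7 of 10 beside 40.5% of all genes. CRY1 (44.9%), CRY2 (41.3%) and PER2 (36.5%) did not pass, with adjusted p-values of 0.348, 0.198 and 0.143.

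DBP again led, with a log2 deviation of replicate 1 from the group means of -0.56, against 0.33 for replicate 2 and 0.24 for replicate 3 (limma F-test adjusted p = 0.000196). Averaged over both groups, DBP was at 255 normalised counts in replicate 1, 476 in replicate 2 and 446 in replicate 3. BHLHE40 followed, at 1082, 1658 and 1621 (adjusted p = 0.000374). PER1 was at 261, 367 and 398 (adjusted p = 0.00277) and PER3 at 591, 759 and 812 (0.00296). For each of these genes the gap between replicate 1 and the other numbers exceeded the mean difference between dox and no dox. TEF was at 456, 615 and 622 (adjusted p = 0.00522).

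Among the nuclear receptors, NR1D1 was also lowest in replicate 1 and was highest in replicate 3, with mean counts of 405, 484 and 587.5 (limma F-test adjusted p = 0.0108). In NR1D2 replicates 1 and 2 were level, at 2676 and 2674, with replicate 3 at 3142 (adjusted p = 0.00997). The NR1D2 call was lost without dox replicate 2 (adjusted p = 0.0557), dox replicate 3 (0.0909) or no dox replicate 3 (0.0947), whereas the other 6 members passed in all 15 alternatives run.

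Replicate 1 had the lowest mean log2 level in 9 of the 10 genes, all but CRY1, though in NR1D2 it was level with replicate 2 (-0.08 for both), beside 5106 of 13153 genes in all. Both replicate 1 libraries were below the other 4 in 6 of 10 (PER1, PER3, NR1D1, DBP, TEF and BHLHE40), beside 16.5% of all genes. The 10 genes were chosen with earlier results of these data known. Their excess over all genes, here and in the F-test of replicate number, is therefore description only. The median log2 deviation of the 10 was -0.27 in replicate 1, 0.09 in replicate 2 and 0.17 in replicate 3, where over all genes each median was within 0.003 of 0. What libraries of equal number have in common is not in the labels. Time of harvest, culture, library preparation and read depth as sources of the replicate pattern were not tested.

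**Figure D4:**
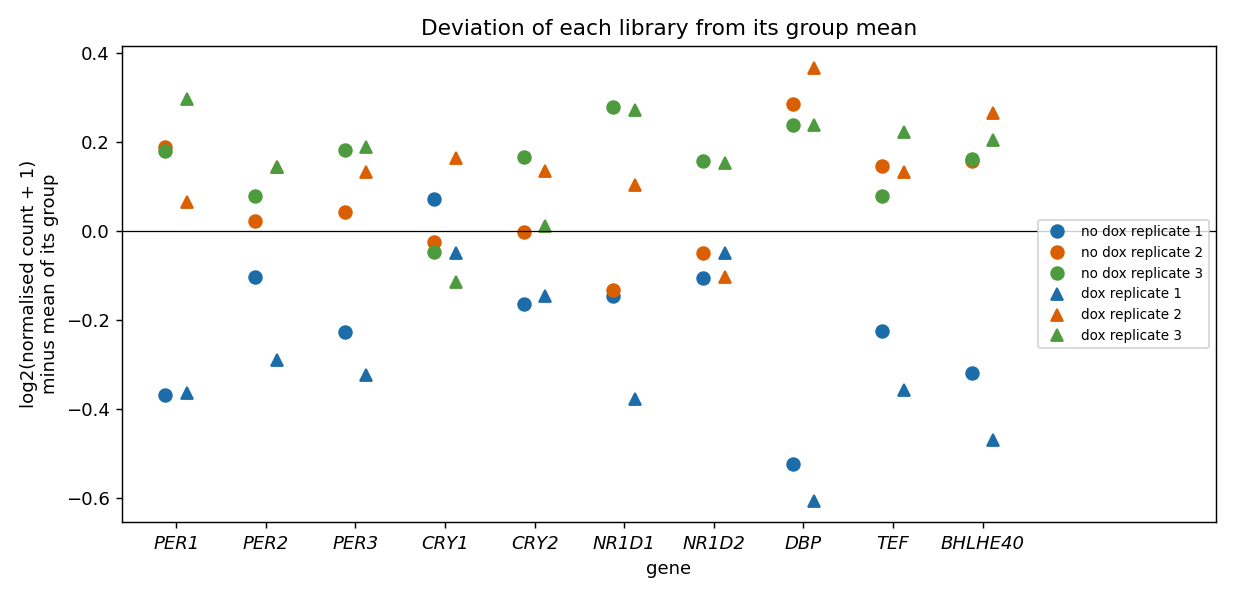
Deviation of each library from the mean of its own group on the log2(normalised count + 1) scale, for the 10 clock genes, with circles for no dox and triangles for dox and colours for replicate number. Replicate 1 is below 0 in both groups for every gene but CRY1, most of all in DBP, where it lies near -0.56.

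Across the 6 libraries DBP and BHLHE40 had almost the same profile (Pearson r = 0.993 on the log2 scale). TEF was most like BHLHE40 (r = 0.971), PER1 most like TEF (0.948), PER3 most like PER1 (0.868), and NR1D1 most like TEF (0.805). PER2 and CRY2 were each other's nearest (0.894), and NR1D2 was nearest to NR1D1 (0.73). CRY1 resembled none, with a highest r of 0.099 (BHLHE40) and a lowest of -0.641 (NR1D2). Among 6574 other genes with a level at or above the median, those most like DBP were JUP (0.9946), FADS1 (0.9919) and MRPS15 (0.9882), which encode plakoglobin, a fatty acid desaturase and a mitochondrial ribosomal protein. These are descriptions over 6 points that share the line, the replicate numbers and the dox groups, and are given with no test.

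The remaining clock genes were read from lists by role, in the fit with the block, since none of them passed in the limma fit without it. In the positive arm, the partners and paralogues of BMAL1 and CLOCK, 1 of 4 tested genes was higher and 2 were lower. ARNTL had 427, 466 and 427 normalised counts in dox and 346, 345 and 328 in no dox, with groups apart, a log2 change of 0.37 and a blocked limma adjusted p of 0.00612 (0.131 without the block). Its paralogue ARNTL2 had a change of -0.25 (adjusted p = 0.00805) and NPAS2, a CLOCK paralogue, one of -0.26 (0.0131), both lower in dox with groups apart. CLOCK, at 0.05, did not pass (adjusted p = 0.482). Unlike DBP, the ARNTL call was lost without either replicate 2 library (adjusted p = 0.0684 and 0.0636), as was that of ARNTL2 (0.0937 for each), which FPKM values also ended (0.0524). The NPAS2 call was lost with FPKM (0.0834) and without any 1 of the replicate 2 or 3 libraries (0.0775 to 0.107). RORA and RORB, activators that compete with NR1D1 and NR1D2, were at an FPKM of at most 0.0409 and were not in the normalised table.

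Of 6 other repressors and D-box factors, 1 was higher and 2 were lower with the block. BHLHE41, the paralogue of BHLHE40, resembled it in replicate number, with 1505, 2165 and 2139 normalised counts in dox and 1325, 1916 and 2022 in no dox. Its change of 0.15 passed narrowly (limma adjusted p = 0.0492) and was lost without any 1 of the replicate 2 or 3 libraries (0.0906 to 0.283). HLF, the third PAR bZIP factor beside DBP and TEF, went the other way. It had 116, 57.8 and 74.9 in dox and 220, 89.0 and 94.1 in no dox, so that replicate 1 was highest where in DBP and TEF it was lowest. The HLF change with dox was -0.62 (blocked limma adjusted p = 0.0140), a call lost with FPKM values (0.0840) and without either replicate 2 library (0.0617 and 0.0675). TIMELESS, which is mainly a replication fork protein in mammals, had a change of -0.52 (adjusted p = 0.00127) and was called lower in all 10 blocked settings, and in 1 of 15 unblocked ones, DESeq2 (adjusted p = 0.0185). CIART, a repressor of CLOCK and BMAL1, changed by 0.33 and did not pass (adjusted p = 0.111).

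Of 24 kinases, ubiquitin ligases and cofactors of clock proteins, 1 was higher and 2 were lower with the block. HUWE1, a ligase, was higher by 0.23 and HDAC3, the deacetylase recruited by REV-ERB, had a change of -0.18 (blocked limma adjusted p = 0.00523 and 0.0310). Both calls were lost without either replicate 2 library (adjusted p = 0.0546 to 0.102). The HDAC3 call was also lost without no dox replicate 1 (0.0516), without either replicate 3 library (0.0885 and 0.0888) and with FPKM values (0.107). Together the 3 lists hold 34 tested genes, of which 3 were higher and 6 lower with the block, beside 10.2% and 12.4% of all genes. The F-test of replicate number called 11 of these 34, beside 40.5%.

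**Figure D5:**
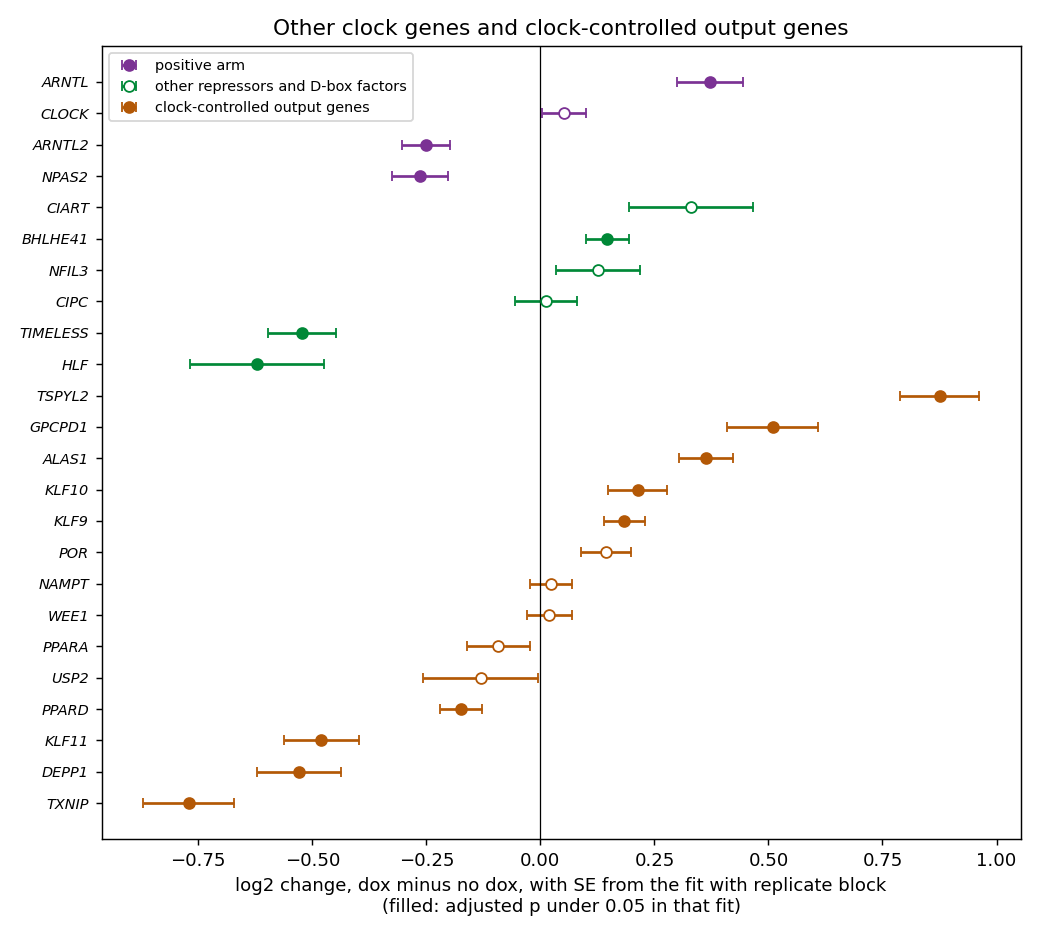
Log2 change with dox, with its SE from the fit with the replicate block, for the positive arm, the other repressors and D-box factors, and 14 of the 15 clock-controlled output genes, with filled points for an adjusted p under 0.05. ARNTL lies to the right of 0 at 0.37 while its paralogue ARNTL2 lies to the left at -0.25, and the output genes spread from -0.77 (TXNIP) to 0.88 (TSPYL2).

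Output genes that the clock is known to drive in other tissues did not share 1 direction. With the block 6 of 15 were higher and 4 lower, beside 10.2% and 12.4% of all genes, and the F-test of replicate number called 10, beside 40.5%. Without the block none of the 15 passed in limma, beside 0.54% of all genes. TSPYL2 was higher by 0.88 and TXNIP had a change of -0.77 (blocked limma adjusted p = 0.000211 and 0.000687). By replicate number, NAMPT, the rate-limiting enzyme of NAD salvage, was low in replicate 1 as DBP was, with 1347, 1579 and 2051 in dox and 1312, 1576 and 2009 in no dox.

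Genes that answer the signals known to reset clocks also differed by replicate number, 11 of 18 immediate early genes and 7 of 10 glucocorticoid-responsive genes, beside 40.5% of all genes. CTGF and DUSP1 were highest in replicate 1, by 0.52 and 0.47 above their group means, the opposite of PER1, DBP and BHLHE40 (limma F-test adjusted p = 1.1e-05 and 2.2e-05). EGR1, in contrast, was low in replicate 1 and high in replicate 2, by -0.42 and 0.55. Over the 18 immediate early genes replicate 1 had the lowest mean in 8 and the highest in 7. Over the 10 glucocorticoid-responsive genes it had the lowest mean in 5 and the highest in 1. GLUL and ERRFI1 were low in replicate 1 as PER1 was, by -0.33 and -0.31 (limma F-test adjusted p = 0.000241 and 0.000181). FKBP5 deviated there by -0.19 on average (0.0230), unlike PER1 in that its no dox replicate 1 was not lowest. Its FPKM in no dox was 2.28 in replicate 1 and 2.24 in replicate 3. SGK1, a glucocorticoid and serum-induced kinase, was high in replicate 1 by 0.40 (0.000167), and TSC22D3 deviated by -0.04. With dox and the block, 5 immediate early genes were higher and 4 lower, and of the glucocorticoid list 2 were higher and 2 lower, beside 10.2% and 12.4% of all genes. Neither list had a call in limma without the block, beside 0.54% of all genes. FKBP5 had a change of -0.53 (blocked limma adjusted p = 0.000918). PDK4, 1 of the 2 that were higher, was at 6.50 to 9.52 normalised counts in no dox, under the filter's minimum of 10, and at 24.8 to 37.9 in dox. It entered the test through its dox level alone, so no change is given for it. The part of these signals in the levels of the clock genes was not tested.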

How the data were processed

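Polyadenylated RNA of 3 dox and 3 no dox libraries was measured, with group and replicate number read from the titles. Per the submitters' processing notes, the build was hg19 and the tools were bcl2fastq, Trimmomatic, TopHat and edgeR, with no roles or versions named; the counting settings, strand use and the formula of the normalised counts are not given in the sources used here. The authors deposited normalised counts (a depth-equalised signal), FPKM values, and a comparison table that holds, per the file headers, a log2 fold change, its p-value before and after adjustment, a likelihood ratio score and CPM per library. All CPM values were whole multiples of 1 read (100%, tolerance 0.01), so whole reads were recovered. The authors' gene width exceeded the gene's span in 2131 of 13008 genes (16.4%), so levels between the clock genes used CPM per kilobase of merged exons from GENCODE 29. Cell type markers and the ROR receptors were read as the authors' FPKM only. Per kilobase of coding exons, 2 of the low markers were above 0.3 in no dox, SERPINF1 at up to 0.90 and BEST1 at up to 0.328.

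Two-sided tests used limma-trend on log2(normalised count + 1) for the 13153 genes that reached 10 normalised counts in 3 or more libraries (8 did not). Calls had an adjusted p under 0.05. The replicate number was tested with a moderated F-test in a model with group. Deviations of same-numbered libraries correlated at 0.745, 0.726 and 0.768 across genes, so the numbers, which come from the titles, were taken to pair the libraries. The block left 2 residual degrees of freedom. In a blocked fit without 1 library its same-numbered partner no longer informs the dox change. Leaving out either library of a pair therefore gives the same estimate, and the 2 settings are not separate checks. On recovered reads, DESeq2 and edgeR (quasi-likelihood) were run. Alternatives were pseudocounts of 0.25 and 5, no filter, a minimum of 50, FPKM as log2(FPKM + 0.1), TMM and median-of-ratios scaling, the block with limma or edgeR, and leaving out each library. The block with FPKM, with TMM or without 1 library, and other gene lengths, were added after the data were seen.

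The members and lists were chosen with earlier results of these data known. Named were all members, FOXM1, and from each list up to 4 called genes by smallest blocked p and up to 4 by smallest p of replicate number, except for some items that are not reported here. For likeness they were each member's nearest member by Pearson r and the 3 genes nearest to the member with the smallest replicate number p. The fits were tested on simulated data. Versions were DESeq2 1.42.0, edgeR 4.0.16, limma 3.58.1 and R 4.3.3, with pandas 2.3.3, matplotlib 3.10.9 and Python 3.11.15.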

Additional observations from a re-analysis of the deposited data

How the results depend on the processing

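Without a block, none of the clock genes was called under the 15 alternatives run, and 7 passed the test of replicate number in 12 of 15 (6 without dox replicate 2, dox replicate 3 or no dox replicate 3). Over all genes the count with dox, 71, was 31 with FPKM, 522 with DESeq2 and 3 to 19 without 1 library. With the replicate block as a pairing it was 2965, and 3058 with edgeR, 2081 with FPKM, 2978 with TMM and 1346 to 3844 without 1 library (1346 and 1378 without a replicate 2 library, 1795 and 1816 without a replicate 3 library). The clock genes called with the block were 3 with limma or edgeR, 2 with FPKM, 2 with TMM and 1 to 4 without 1 library. Genes differing by replicate number, 5329, were 3212 with DESeq2 and 2811 to 6686 without 1 library, with the lowest value on leaving out dox replicate 2, and 3323 on leaving out no dox replicate 2.

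Among the named genes, signs reversed only when a library was left out. Without 1 library PER1 ranged from -0.113 (no dox replicate 1) and -0.079 (dox replicate 3) to 0.252, PER3 from -0.228 to 0.047 (dox replicate 1), CRY1 from -0.061 (dox replicate 2) and -0.003 (no dox replicate 3) to 0.077, NR1D1 from -0.034 (dox replicate 3) to 0.289, and BHLHE41 from -0.043 (no dox replicate 1) to 0.319. TEF ranged from 0.027 to 0.317, NR1D2 from 0.017 to 0.172, PER2 from -0.42 to -0.199, CRY2 from -0.313 to -0.147, and HLF from -0.888 (dox replicate 1) to -0.202 (no dox replicate 1). With the block and without either replicate 2 library, CRY1 was -0.074 and NR1D1 -0.016. The cause of these changes was not tested, beyond the fewer libraries. Other scalings left the sign of all 10 members and moved the median of all genes to at most 0.0232. Of 1303 pairs of gene result and setting, 1059 kept direction and call, 211 gained a call, 22 lost one and 11 reversed. Depth limits PER2 and CRY2 most, with 95 and 135 reads in their shallowest library.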
